A study of Homo sapiens with 12 samples.

Results

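ADCYAP1R1, CAMKV, NTRK2, PDE1B, TUBAL3, G0S2, ABCA3 and SORD are 8 of the 23434 human genes counted in an EU-seq experiment, in which newly made RNA was labelled with 5-ethynyl-uridine (EU), captured and sequenced. They were chosen by their EU-seq counts, which were absent or low in the control libraries and changed among the most in at least 1 comparison of the same 12 libraries. ADCYAP1R1, ABCA3, SORD and G0S2 were named from the response to OHT in control cells, TUBAL3, NTRK2 and PDE1B from the comparison of shCDK12 with shNT, and CAMKV, with ADCYAP1R1 and G0S2 again, from the interaction of OHT with the shRNA. The levels in these comparisons are therefore a description of genes chosen for them, and no p-value is given for a gene in a comparison that shares a library with the one that named it. In the control libraries 12452 genes had a mean at or under 7.8 CPM (counts per 1000000 counts, with library totals scaled by TMM, the trimmed mean of M values), the highest control mean among the 8 genes.

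The cells were U2OS-MycER, human osteosarcoma cells with a Myc and estrogen receptor fusion, in which 4-hydroxytamoxifen (OHT) brings the fusion into the nucleus. Cells were infected with virus for a non-targeting shRNA (shNT) or an shRNA against CDK12 (shCDK12), and each was cultured with or without 300 nM OHT for 40 h, which gave shNT, shNT+OHT, shCDK12 and shCDK12+OHT with 3 libraries each. All 4 groups, controls included, carried MycER and received 1 µg/mL doxycycline to switch on the shRNA and 100 ng/mL nocodazole for 8 h. Cells arrested before division were then shaken off and collected 12 h after release, with 0.5 mM EU present for the last 2 h. From each sample 40 µg of human RNA was mixed with 10 µg of labelled mouse RNA. The hairpin sequence and the number of clones are not given in the sources used here, and nothing says that libraries of a group came from separate cultures, so each p-value measures only the spread between these libraries.

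Library totals ran from 1928373 to 5227279 counts in shNT, from 1251695 to 3666406 in shNT+OHT, from 4142570 to 9400045 in shCDK12 and from 5378438 to 10447836 in shCDK12+OHT, so that both shNT groups were shallower. A floor of 3 counts corresponded to 0.285 CPM in the deepest library and 2.47 CPM in the shallowest. The targeted gene CDK12 stood at 304 ± 17.4 CPM (SD, n = 3) in shNT against 289 ± 10.9 CPM in shCDK12, a log2 difference of -0.076 (SE 0.084, adjusted p = 0.447 from the edgeR quasi-likelihood test), while with OHT it stood at 397 ± 38.7 CPM in shNT+OHT against 214 ± 5.09 CPM in shCDK12+OHT. No difference in newly made CDK12 RNA was thus detected in the first pair. EU-seq measured newly made RNA and not the mature RNA or protein, so this level cannot decide whether CDK12 was silenced. The 2 groups are called shCDK12-labelled and shCDK12+OHT-labelled. Whether these 2 labels were exchanged cannot be told from the files. With the labels exchanged, CDK12 would stand at 214 against 304 CPM without OHT and at 289 against 397 CPM with it, each difference between the 2 groups would turn its sign, and a comparison of either with shNT or shNT+OHT would carry the name of the other. Of 8 osteoblast and mesenchymal markers 5 were at 10 CPM or more in each group, and the summed level of the 8 ran from 1510 to 1580 CPM in shNT, from 1000 to 1110 CPM in shNT+OHT, from 405 to 414 CPM in the shCDK12-labelled libraries and from 566 to 583 CPM in the shCDK12+OHT-labelled ones. The markers did not change evenly. From shNT to the shCDK12-labelled libraries FN1 went from 659 ± 8.6 to 38.2 ± 2.93 CPM and VIM from 323 ± 13 to 180 ± 11 CPM. COL1A2 (0.13 and 0.375 CPM) and TWIST1 (0 and 0.07 CPM) were not lower.

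Most of the 8 genes are known from other tissues than bone. ADCYAP1R1 is the receptor for the neuropeptide PACAP and NTRK2, or TrkB, that for the neurotrophin BDNF, and both pass signals from outside the cell to kinases. CAMKV is a kinase-like protein that binds calmodulin in neurons, and PDE1B is a phosphodiesterase that calmodulin switches on to break down cyclic AMP and cyclic GMP. TUBAL3 belongs to the alpha-tubulin family. G0S2 inhibits the triglyceride lipase PNPLA2, ABCA3 loads lipid into the surfactant bodies of the lung's alveolar type II cells, and SORD oxidizes sorbitol to fructose. As background, MYC binds mainly at the E-box CACGTG with its partner MAX, and CDK12 phosphorylates RNA polymerase II as it elongates.

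Promoter windows of 300 bases, 250 of them before a start of transcription, were taken from the RefSeq table of GRCh38.p14 for 7 of the 8 genes (12 windows), while SORD had no window in the table. The windows of ADCYAP1R1 (chr7:31052058-31052357, plus strand), G0S2 (chr1:209675162-209675461, plus strand), ABCA3 (chr16:2340679-2340978, minus strand) and TUBAL3 (chr10:5404779-5405078, minus strand) are shown 5′ to 3′ because they stand for the CpG-rich and the CpG-poor genes of the set, with each CG pair in capitals.
ADCYAP1R1: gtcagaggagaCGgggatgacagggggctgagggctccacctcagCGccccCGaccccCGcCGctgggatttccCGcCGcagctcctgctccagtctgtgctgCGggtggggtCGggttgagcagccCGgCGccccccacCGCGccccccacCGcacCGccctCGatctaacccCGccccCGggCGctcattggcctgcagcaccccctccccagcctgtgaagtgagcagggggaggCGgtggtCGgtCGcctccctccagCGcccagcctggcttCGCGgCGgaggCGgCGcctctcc
G0S2: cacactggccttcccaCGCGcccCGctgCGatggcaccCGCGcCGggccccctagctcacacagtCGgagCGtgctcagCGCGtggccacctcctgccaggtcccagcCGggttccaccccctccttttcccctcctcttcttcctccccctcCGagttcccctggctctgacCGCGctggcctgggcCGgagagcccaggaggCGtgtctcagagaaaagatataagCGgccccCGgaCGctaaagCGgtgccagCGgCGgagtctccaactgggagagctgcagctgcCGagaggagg
ABCA3: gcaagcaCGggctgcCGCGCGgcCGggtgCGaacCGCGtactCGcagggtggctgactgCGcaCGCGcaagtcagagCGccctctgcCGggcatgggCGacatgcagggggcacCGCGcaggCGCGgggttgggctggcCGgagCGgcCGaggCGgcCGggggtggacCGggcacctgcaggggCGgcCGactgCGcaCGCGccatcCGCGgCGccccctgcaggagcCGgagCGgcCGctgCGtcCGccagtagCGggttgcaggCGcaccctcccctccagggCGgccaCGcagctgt
TUBAL3: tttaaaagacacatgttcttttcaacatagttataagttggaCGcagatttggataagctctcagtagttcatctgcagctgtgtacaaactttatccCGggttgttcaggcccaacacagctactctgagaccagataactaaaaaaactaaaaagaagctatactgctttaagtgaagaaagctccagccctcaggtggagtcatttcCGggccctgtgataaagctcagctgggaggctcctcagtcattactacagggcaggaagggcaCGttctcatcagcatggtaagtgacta
The GC content was 75% with 28 CG pairs at ADCYAP1R1, 69% with 24 at G0S2, 78% with 42 at ABCA3 and 44.3% with 4 at TUBAL3, against a median of 58.7% and 14 pairs over all 35116 windows of the table. The window of CAMKV was at 71% with 24 pairs. On either strand, the E-box CACGTG was present in 0 of the 12 windows and in 7.26% of all windows, and the variant CACGCG in 3 of the 12 and 11.4% of all. The CACGCG copies began 236 and 171 bases before the start of G0S2, 189 and 54 bases before that of ABCA3, and after the start in 1 of the 4 NTRK2 windows. The GC box GGGCGG was in 5 windows (45% of all windows) and CCAAT in 6 (34.6% of all), whereas TGACGTCA, the full cyclic AMP response element, was in 0 (1.85% of all) and TATAAA in 0 (11.5% of all). No match overlapped with another, the matches describe the windows only, and their absence says nothing of a factor bound elsewhere.

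Across the 8 genes, newly made RNA was low in shNT, high in the shCDK12-labelled libraries and lower again in the shCDK12+OHT-labelled ones. For each of the 8, all 3 shCDK12-labelled libraries lay above all 3 shNT libraries, as they did for 30.8% of the 11718 genes tested in this comparison, and all 3 shCDK12+OHT-labelled libraries lay below the shCDK12-labelled ones, as for 24.7% of 12519 genes. In shNT+OHT the libraries lay above the shNT libraries for 6 of the 8 genes, against 16.9% of 10272 genes. NTRK2 and TUBAL3 were the exceptions, with overlapping values. Of the 12452 genes at or under 7.8 CPM in shNT, 204 reached at least 14.2 CPM in the shCDK12-labelled libraries, the lowest mean of the 8 there. These counts restate the choice of the genes and test nothing, and the comparisons with shNT share its 3 libraries.

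**Figure D1:**
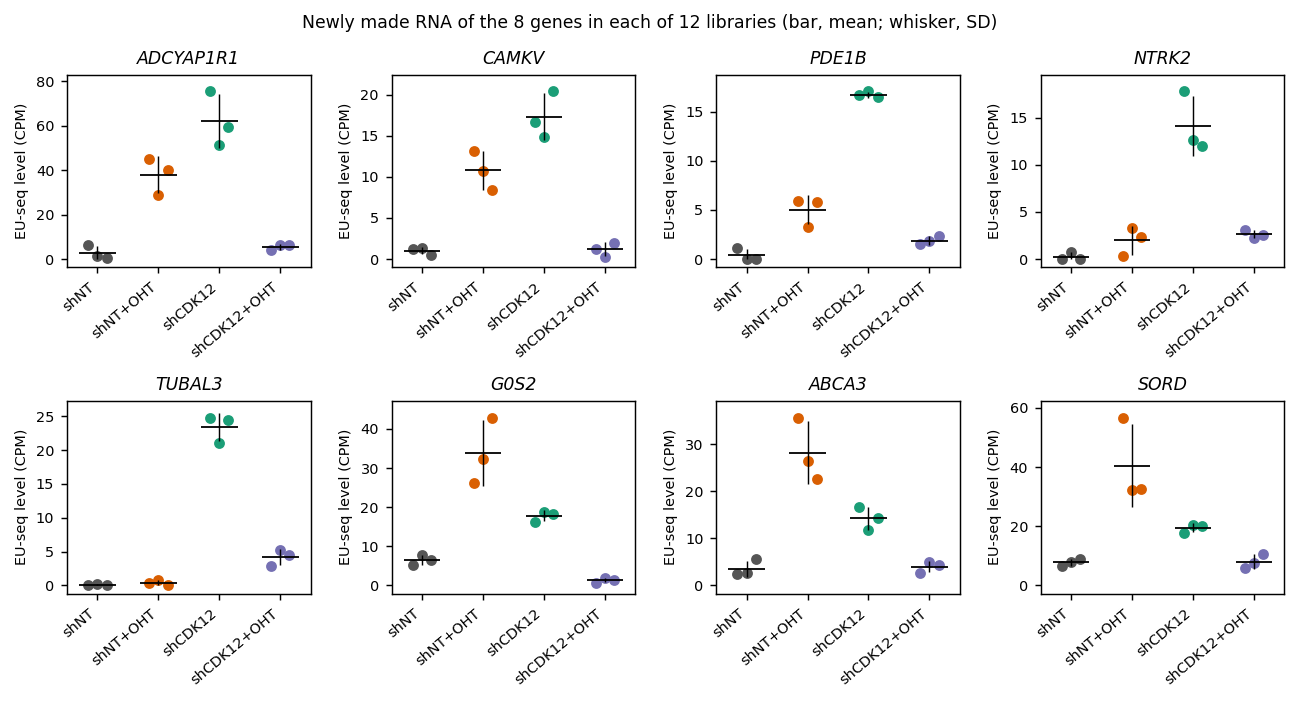
EU-seq level (CPM, y axis) of each of the 8 genes in each library (points) by group as labelled (x axis), with the group mean as a horizontal bar and the SD of 3 libraries as a whisker; each panel has its own scale. Every panel has its 3 shCDK12-labelled points above its 3 shNT points, and G0S2, ABCA3 and SORD are highest in shNT+OHT.

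ADCYAP1R1 had 26, 7 and 1 counts in the 3 shNT libraries, or 6.09, 1.37 and 0.501 CPM, and 144, 35 and 138 counts (45.1, 28.9 and 40 CPM) in shNT+OHT. In the shCDK12-labelled libraries the PACAP receptor reached 326, 491 and 322 counts, at 75.5, 51.5 and 59.6 CPM, and in the shCDK12+OHT-labelled ones it was back at 30, 66 and 36 counts, at 4.08, 6.27 and 6.53 CPM. The first and last of these groups overlapped and the other two stood apart from them and from each other. The means were 2.65 ± 3.01, 38 ± 8.31, 62.2 ± 12.2 and 5.63 ± 1.35 CPM (SD, n = 3) in this order, a ratio to shNT of 14.3 in shNT+OHT and 23.5 in the shCDK12-labelled libraries. The size of both ratios rested on shNT replicate 1, which held 26 of the 34 shNT counts: without it they were 40.7 and 66.6. In the fits ADCYAP1R1 had the highest log2 fold change of 10272 genes upon OHT in shNT, at 3.71 (SE 0.47). This comparison named the gene, so the rank restates the choice.

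Of the other genes of PACAP signalling, PACAP itself (ADCYAP1) had no count in either shNT group and at most 4 in a library, and the peptide VIP and the receptors VIPR1 and VIPR2 had at most 28, so that 0 of these 4 genes reached the mean of 32 normalized counts needed for a test. Of the 10 adenylyl cyclases, the enzymes that such receptors switch on, 5 were tested upon OHT in shNT and 1 rose, with 17.3% of all genes called in either direction. This was ADCY1, at 12.6 ± 0.665, 26 ± 10.1, 19.8 ± 1.71 and 16.2 ± 0.801 CPM (SD, n = 3) from shNT to shCDK12+OHT as labelled, the same order of group means as ABCA3 and SORD. It rose by 1.08 on the log2 scale upon OHT in shNT (SE 0.30, adjusted p = 0.0241, edgeR) and by 0.64 from shNT to the shCDK12-labelled libraries (adjusted p = 0.0107). Its interaction was called at -1.36 (adjusted p = 0.00176), as were 45.2% of all genes. The family did not share this sign: of 6 tested cyclases 1 was called higher in the interaction and 2 lower, against 25.6% and 19.6% of all genes. The higher one was ADCY6, at 1.27 (adjusted p = 0.000153, edgeR), with 33.1 ± 2.39 CPM in the shCDK12-labelled libraries and 60.5 ± 7.35 CPM in the shCDK12+OHT-labelled ones. From shNT to the shCDK12-labelled libraries, 3 of 6 tested cyclases rose and 0 fell, where 62% of all genes were called, 29.6% as higher and 32.4% as lower. ADCY9 rose from 12 ± 4.97 to 26.3 ± 1.48 CPM, a log2 change of 1.09 (adjusted p = 0.000215, edgeR), and stayed at 28.6 ± 1.16 CPM in the shCDK12+OHT-labelled libraries.

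NTRK2 had 0, 4 and 0 counts in shNT and 1, 4 and 8 counts in shNT+OHT, between 0 and 3.3 CPM in these 6 libraries. TrkB counts were 77, 120 and 65 in the shCDK12-labelled libraries, at 17.8, 12.6 and 12 CPM, and 23, 24 and 14 in the shCDK12+OHT-labelled ones, at 3.12, 2.28 and 2.54 CPM. The shCDK12-labelled libraries lay above the other 9, while shNT+OHT overlapped with both shNT and the shCDK12+OHT-labelled libraries. The means were 0.26 ± 0.451, 1.98 ± 1.52, 14.2 ± 3.2 and 2.65 ± 0.432 CPM (SD, n = 3). Counts summed over a group and divided by its summed, scaled totals gave a ratio of 38.7 for the shCDK12-labelled libraries to shNT, with an exact 95% interval from 15 to 143 that covers counting error only. All 4 shNT counts came from replicate 2.

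Among 7 other neurotrophins and receptors, 4 were tested from shNT to the shCDK12-labelled libraries, of which 2 rose and 1 fell, where 29.6% of all genes rose and 32.4% fell. NGFR, the receptor p75 that binds all neurotrophins, had 25, 26 and 4 counts in shNT, 13, 3 and 11 in shNT+OHT, 186, 250 and 139 in the shCDK12-labelled libraries and 213, 297 and 170 in the shCDK12+OHT-labelled ones. It rose by 2.72 on the log2 scale (SE 0.28, adjusted p = 7.64e-09, edgeR) from shNT to the shCDK12-labelled libraries, and by 3.11 (SE 0.25, adjusted p = 1.1e-05) from shNT+OHT to the shCDK12+OHT-labelled ones. NGFR thus stayed high in both groups labelled with the shRNA, at 31.7 ± 9.88 and 29.3 ± 1.35 CPM, whereas NTRK2 was high in the first of them. NTF3, a ligand mainly of NTRK3, rose by 1.12 (adjusted p = 0.0037) and SORT1, which sorts neurotrophin precursors, fell by 0.97 (adjusted p = 0.00015) in the first comparison. BDNF, the ligand of TrkB, was at 42.2 ± 4.87 CPM in shNT and 38.2 ± 2.65 CPM in the shCDK12-labelled libraries. NTRK3, a related receptor, was under the limit for a test, at 2.49 ± 0.573 CPM in shNT and 3.4 ± 0.503 CPM in the shCDK12-labelled libraries.

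**Figure D2:**
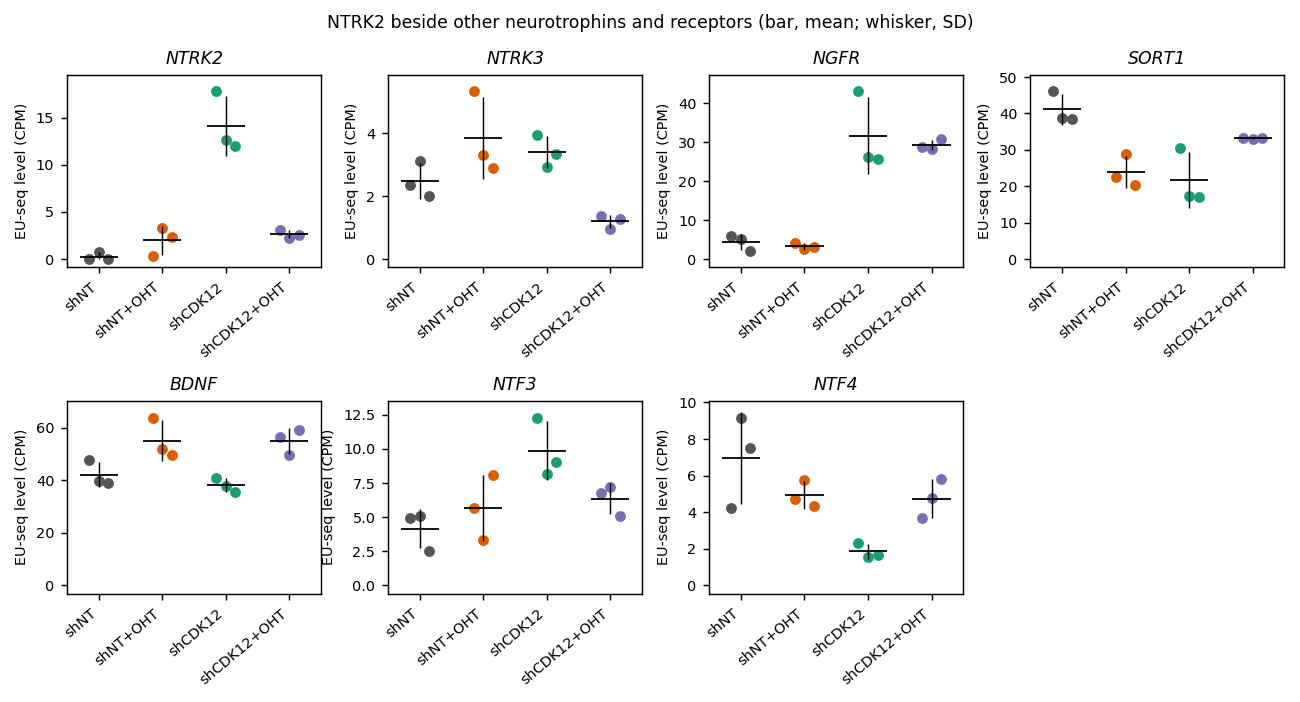
EU-seq level (CPM, y axis, own scale in each panel) of NTRK2 and 6 other neurotrophins and receptors in each library (points) by group as labelled (x axis), with the mean as a bar and the SD of 3 libraries as a whisker. NTRK2 is high in the shCDK12-labelled libraries alone, and NGFR in both groups labelled with the shRNA, at 31.7 and 29.3 CPM.

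CAMKV had 5, 7 and 1 counts in shNT, at 1.17, 1.37 and 0.501 CPM, and 42, 13 and 29 counts in shNT+OHT, at 13.2, 10.7 and 8.41 CPM. This calmodulin-binding pseudokinase stood at 72, 142 and 110 counts in the shCDK12-labelled libraries (16.7, 14.9 and 20.4 CPM) and at 9, 3 and 11 counts in the shCDK12+OHT-labelled ones (1.22, 0.285 and 2 CPM). As for ADCYAP1R1, the lowest pair of groups overlapped and the highest pair did not. The group means were 1.01 ± 0.454, 10.8 ± 2.37, 17.3 ± 2.78 and 1.17 ± 0.856 CPM (SD, n = 3). From the shCDK12-labelled libraries to the shCDK12+OHT-labelled ones, CAMKV had the lowest log2 fold change of all 12519 genes tested, at -4.07 (SE 0.35).

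PDE1B had 5 counts in shNT replicate 1 and 0 in the other shNT libraries, and 19, 4 and 20 counts in shNT+OHT, at 5.95, 3.3 and 5.8 CPM. Its shCDK12-labelled libraries were the closest to each other of any group of the 8 genes above 10 CPM, at 16.7, 17.1 and 16.5 CPM from 72, 163 and 89 counts. With OHT these fell to 1.49, 1.81 and 2.36 CPM from 11, 19 and 13 counts. The 4 groups did not overlap for PDE1B, and their means stood at 0.39 ± 0.676, 5.02 ± 1.49, 16.7 ± 0.324 and 1.89 ± 0.437 CPM (SD, n = 3) from shNT to shCDK12+OHT as labelled. The ratio of summed counts to shNT was 12.5 (exact 95% interval 4.95 to 40.3) in shNT+OHT and 38.3 (16.3 to 119) in the shCDK12-labelled libraries, both against 5 counts in 1 library.

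Of the related enzymes, PDE1A, of the same calmodulin-dependent family, had at most 2 counts in an shNT library and 16 in any other. It was too near the floor for its change to be set beside that of PDE1B. PDE1C stayed between 5.92 ± 0.619 CPM in shNT and 7.69 ± 1.83 CPM in the shCDK12-labelled libraries. Of 21 other cyclic nucleotide phosphodiesterases 6 were tested upon OHT in shNT, and 0 were called by edgeR, against 17.3% of all genes. From shNT to the shCDK12-labelled libraries, 5 of 9 tested rose and 0 fell, against 29.6% and 32.4% of all genes. Here PDE4D, which breaks down cyclic AMP, rose from 7.08 ± 2.59 to 24 ± 2.58 CPM (log2 change 1.87, adjusted p = 5.11e-07, edgeR), and PDE4B rose by 1.48 (adjusted p = 0.000323). PDE4D was still at 19.5 ± 1.43 CPM in the shCDK12+OHT-labelled libraries. Among calmodulins and the kinases they switch on, 1 rose and 2 fell of 9 tested in the same comparison, in which 62% of all genes were called. The calmodulin gene CALM2 rose by 0.30 (adjusted p = 0.0165) to 298 ± 52.9 CPM, and the kinase kinase CAMKK1 fell by 1.14 (adjusted p = 2.35e-07). Upon OHT in shNT, CAMK2D alone was called of 7 tested and fell by 0.93 (adjusted p = 0.0441, edgeR).

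TUBAL3 was the most nearly silent of the 8, with 0, 1 and 0 counts in shNT and 1, 1 and 0 in shNT+OHT. It had 107, 201 and 132 counts in the shCDK12-labelled libraries, at 24.8, 21.1 and 24.4 CPM. The shCDK12+OHT-labelled libraries held 21, 55 and 25 counts, at 2.85, 5.23 and 4.53 CPM. Both groups labelled with the shRNA lay above all 6 shNT and shNT+OHT libraries, and the shCDK12-labelled libraries lay above the shCDK12+OHT-labelled ones. The ratio of summed counts to shNT was 260 for the shCDK12-labelled libraries, with an interval from 46.5 to 10300 because shNT held 1 count, and 2.9 for shNT+OHT, from 0.151 to 171, so a response to OHT was not detectable at this depth. Against shNT+OHT, with 2 counts, the ratio was 89.7 (24.7 to 743).

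Of 8 other alpha-tubulins, the subunits of microtubules, 5 were tested from shNT to the shCDK12-labelled libraries, of which 2 rose and 2 fell, where 29.6% of all genes rose and 32.4% fell. TUBA1B rose by 0.79 (adjusted p = 1.11e-08, edgeR) and TUBA1C by 0.61 (adjusted p = 8.49e-06), while TUBA4A fell by 1.63 (adjusted p = 7.39e-08) and TUBA1A by 1.01 (adjusted p = 1.77e-07). TUBA1A, the form abundant in neurons, also fell by 0.93 upon OHT in shNT (adjusted p = 0.00235), as 1 of 5 tested, where 8.29% of all genes were called lower. The neighbour of TUBAL3 was itself called. NET1, an exchange factor for the GTPase RhoA, had 316, 429 and 145 counts in shNT (74, 83.7 and 72.7 CPM) and reached 108, 137 and 110 CPM in shNT+OHT. Its shCDK12-labelled libraries were at 208, 220 and 213 CPM, and the shCDK12+OHT-labelled ones at 102, 118 and 119 CPM. NET1 rose by 1.47 on the log2 scale (adjusted p = 1.91e-12, edgeR) from shNT to the shCDK12-labelled libraries and by 0.61 (adjusted p = 0.0143) upon OHT in shNT, and fell by 0.92 (adjusted p = 1.14e-07) from the shCDK12-labelled libraries to the shCDK12+OHT-labelled ones. The part of NET1 in the counts of TUBAL3 was not tested.

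G0S2 was low but present in shNT, with 22, 40 and 13 counts (5.15, 7.81 and 6.52 CPM), and was highest in shNT+OHT, with 84, 39 and 148 counts (26.3, 32.2 and 42.9 CPM). The lipase inhibitor had 70, 179 and 99 counts in the shCDK12-labelled libraries, at 16.2, 18.8 and 18.3 CPM. In the shCDK12+OHT-labelled libraries it had 5, 19 and 8 counts, at 0.679, 1.81 and 1.45 CPM. The 4 groups did not overlap, and G0S2 was the only 1 of the 8 genes whose shCDK12+OHT-labelled libraries all lay below those of shNT, as for 29.3% of 11981 genes tested there. The means were 6.49 ± 1.33, 33.8 ± 8.42, 17.8 ± 1.37 and 1.31 ± 0.576 CPM (SD, n = 3). From shNT+OHT to the shCDK12+OHT-labelled libraries its log2 fold change was the lowest of all 11668 genes tested, at -4.61 (SE 0.34). G0S2 passed the limit of 32 mean normalized counts there through shNT+OHT, and the interaction that named it holds both groups. The rank thus follows in part from the choice and tests nothing.

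In the pathway G0S2 inhibits, PNPLA2 was at 24 ± 4.29, 28.8 ± 12, 34.3 ± 1 and 25.8 ± 3.9 CPM in the same order of groups. Of 16 other genes of lipolysis and lipid droplets, 10 were tested upon OHT in shNT, of which 2 rose and 1 fell, against 9.05% and 8.29% of all genes. DGAT2, which makes triglyceride, rose by 1.14 (adjusted p = 0.0253, edgeR), the PNPLA2 inhibitor HILPDA rose by 0.77 (adjusted p = 0.0097) and the monoglyceride lipase MGLL fell by 0.74 (adjusted p = 0.0229). From shNT to the shCDK12-labelled libraries, 5 of 11 rose and 3 fell, against 29.6% and 32.4% of all genes. ABHD5, the activator of PNPLA2, rose by 1.22 (adjusted p = 2.02e-09) from 56.4 ± 5.42 to 132 ± 15.2 CPM, while MGLL fell by 1.32 (adjusted p = 5.37e-07).

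ABCA3 had 10, 14 and 11 counts in shNT, at 2.34, 2.73 and 5.51 CPM, and 114, 32 and 78 counts in shNT+OHT, at 35.7, 26.4 and 22.6 CPM. This lipid transporter was lower in the shCDK12-labelled libraries, with 72, 112 and 78 counts at 16.7, 11.8 and 14.4 CPM, and had 20, 52 and 24 counts, at 2.72, 4.94 and 4.35 CPM, in the shCDK12+OHT-labelled ones. The last group overlapped with shNT and the others stood apart. The means were 3.53 ± 1.73, 28.2 ± 6.74, 14.3 ± 2.46 and 4 ± 1.15 CPM (SD, n = 3), so that shNT+OHT was at 8 times the level of shNT and the shCDK12-labelled libraries at 4.05 times. Of 11 other ABCA transporters 2 were tested upon OHT in shNT, and ABCA1, the cholesterol exporter, fell by 1.15 (adjusted p = 0.0158, edgeR), where 8.29% of all genes fell. From shNT to the shCDK12-labelled libraries, 0 of 4 were called by edgeR, against 62% of all genes. Markers of the cell type best known for ABCA3 stayed low: none of 5 alveolar type II markers reached 10 CPM in any group, with a summed level from 4.22 to 9.37 CPM in shNT, from 5.51 to 16.3 CPM in shNT+OHT, from 16.7 to 19.7 CPM in the shCDK12-labelled libraries and 9.1 to 11.5 CPM in the shCDK12+OHT-labelled ones, and SFTPA1 was at 0 in the first 3 groups.

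SORD had 28, 40 and 18 counts in shNT (6.56, 7.81 and 9.02 CPM) and 181, 39 and 112 counts in shNT+OHT (56.7, 32.2 and 32.5 CPM). The dehydrogenase had 77, 194 and 109 counts in the shCDK12-labelled libraries, at 17.8, 20.4 and 20.2 CPM, and 43, 78 and 59 counts in the shCDK12+OHT-labelled ones, at 5.84, 7.42 and 10.7 CPM. The order of groups was that of ABCA3, with the lowest pair overlapping, and the means were 7.8 ± 1.23, 40.5 ± 14.1, 19.5 ± 1.41 and 7.99 ± 2.48 CPM (SD, n = 3). SORD has a near-identical pseudogene copy, SORD2P, and how the counting treated reads that fit both is not given in the sources used here, so its counts are uncertain.

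Of 10 other genes of the polyol pathway and of hexose handling, 5 were tested upon OHT in shNT, of which 2 rose, and 6 from shNT to the shCDK12-labelled libraries, of which 4 rose and 1 fell. Of all genes 9.05% rose in the first of these comparisons, and 29.6% rose and 32.4% fell in the second. HK2, a hexokinase that feeds glucose into glycolysis and not into the polyol pathway, stood at 104 ± 19.8, 303 ± 23.1, 447 ± 13.2 and 137 ± 3.09 CPM (SD, n = 3). It rose by 1.53 (adjusted p = 1.12e-05, edgeR) upon OHT in shNT and by 2.07 (adjusted p = 5.59e-15) from shNT to the shCDK12-labelled libraries, and fell by 1.70 (adjusted p = 1.32e-11) from these to the shCDK12+OHT-labelled libraries. Between the last 2 groups 1 of 6 tested genes of the list rose and 3 fell, against 27.5% and 21.5% of all genes. The hexokinase HK1 went the other way. It fell by 0.66 (adjusted p = 5.06e-06, edgeR) from shNT to the shCDK12-labelled libraries and rose by 0.42 (adjusted p = 0.000731) from these to the shCDK12+OHT-labelled ones. AKR1B1, the reductase that makes sorbitol from glucose, rose by 0.74 (adjusted p = 0.000556) from 23.5 ± 1.62 to 39.3 ± 5.91 CPM from shNT to the shCDK12-labelled libraries. KHK, the fructokinase downstream of SORD, was under the limit for a test, with at most 40 counts in a library.

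Set against each other, the 8 genes split by where they were highest. ADCYAP1R1, CAMKV, NTRK2, PDE1B and TUBAL3 were higher in the shCDK12-labelled libraries than in shNT+OHT, by a ratio of means of 1.64, 1.61, 7.16 and 3.34 for the first 4 and with 440 against 2 summed counts for TUBAL3, and the groups did not overlap for any of the 5. G0S2, ABCA3 and SORD were lower there, at 0.526, 0.506 and 0.481 times the mean of shNT+OHT, again with no overlap. Since ABCA3, SORD and G0S2 were named from the OHT response and TUBAL3, NTRK2 and PDE1B from the comparison of the shCDK12-labelled libraries with shNT, this split follows in part from the choice. NTRK2 and PDE1B were under the limit for a fit of the interaction, and 5 of the other 6 genes were called there with a lower response in the shCDK12-labelled background, as were 19.6% of all genes. These calls also follow in part from the choice and test nothing. With the labels of the 2 shCDK12 groups exchanged, the interaction at these 5 genes would lie between -1.36 for ABCA3 and 1.32 for G0S2 on the log2 scale, and 5.88% of all genes would be called (2.04% as higher, 3.84% as lower) in place of 45.2%. Whether these labels were exchanged was not tested.

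**Figure D3:**
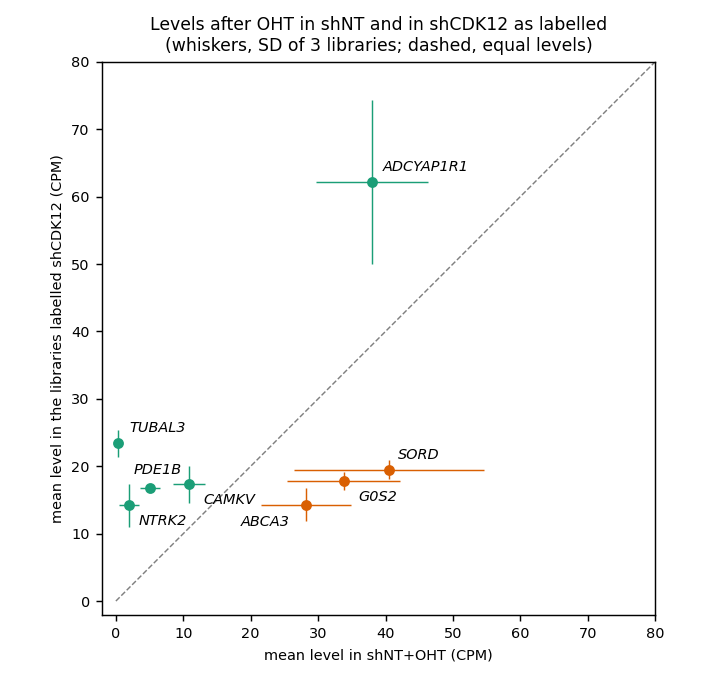
Mean EU-seq level in shNT+OHT (x axis, CPM) against that in the shCDK12-labelled libraries (y axis, CPM) for each of the 8 genes, with whiskers for the SD of 3 libraries and a dashed line at equal levels. The 5 genes above the line range from TUBAL3 at 0.379 and 23.4 CPM to ADCYAP1R1 at 38 and 62.2 CPM, and G0S2, ABCA3 and SORD lie below it.

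Some comparisons share no library with the one that named a gene, and were tested. The genes were chosen with earlier results of these data known, so the tests are not wholly free of the choice. ABCA3 and SORD were named from shNT and shNT+OHT. In the interaction, which holds every group, they also had ranks 5 and 23 from the lowest of 5289 called genes. Both fell from the shCDK12-labelled libraries to the shCDK12+OHT-labelled ones, where 48.9% of 12519 genes were called and 21.5% were called lower. ABCA3 fell by 1.79 on the log2 scale (SE 0.24, adjusted p = 1.05e-05, edgeR quasi-likelihood test over all genes), and was lower in 3 of 3 libraries. SORD fell by 1.32 (SE 0.20, adjusted p = 2.97e-05), also in 3 of 3 libraries. The direction rests on the labels of these groups, which the newly made CDK12 RNA cannot decide. With these labels exchanged both differences would keep their size and turn their sign. An exchange was not tested. These falls were smaller than those of the other 6 genes, whose log2 differences ran from -4.07 for CAMKV to -2.40 for NTRK2 and are given without a test.

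TUBAL3, NTRK2 and PDE1B were named from shNT and the shCDK12-labelled libraries, so that by this naming shNT+OHT and the shCDK12+OHT-labelled libraries were not used for them. The 3 genes were under the mean of 32 normalized counts in that pair and were tested over all 20971 genes with at least 1 count, of which 28.9% were called, 16.3% as higher and 12.6% as lower. TUBAL3 was higher in the shCDK12+OHT-labelled libraries, with 101 against 2 summed counts, a ratio of 17 (exact 95% interval 4.57 to 142; adjusted p = 0.000688, edgeR). PDE1B was lower, with a log2 difference of -1.47 (SE 0.51, adjusted p = 0.0274), and its libraries did not overlap, but the call was lost without any 1 of the 3 shCDK12+OHT-labelled libraries (adjusted p from 0.0619 to 0.162, edgeR). NTRK2 was not called, at 0.63 (SE 0.66, adjusted p = 0.513), and the ratio of its summed counts was 1.58 with an interval from 0.856 to 3.13.

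Against shNT, the shCDK12+OHT-labelled libraries overlapped for ADCYAP1R1, CAMKV, ABCA3 and SORD, with ratios of means of 2.12, 1.15, 1.13 and 1.02. The first of these ratios was 6.03 without shNT replicate 1, and that of CAMKV was 0.744 without shCDK12+OHT replicate 3 and 1.59 without replicate 2. NTRK2, PDE1B and TUBAL3 were higher than shNT in all 3 libraries, with 61 against 4, 43 against 5 and 101 against 1 summed counts, in a comparison where 30.4% of all genes had this order. Of the 8 genes SORD alone was measured well enough for the fit of this pair, in which 55.6% of genes were called and 27.3% were called lower, at a log2 difference of 0.047 (SE 0.27).

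Most genes next to the 8 on the chromosome were low in all 4 groups, also where the 8 were high. Of the 16 adjacent genes in the order of the RefSeq table, 4 had at least 10 CPM in shNT, and the others had means of at most 5.79 CPM in each group. Next to G0S2, LAMB3, a laminin chain, was at 371 ± 12.3 CPM in shNT and 374 ± 51 CPM in shNT+OHT, but at 125 ± 1.56 CPM in the shCDK12-labelled libraries and 259 ± 2.01 CPM in the shCDK12+OHT-labelled ones, a fall of 1.57 (adjusted p = 3.81e-14, edgeR) from the first to the third group, in which G0S2 was higher. From shNT+OHT to the shCDK12+OHT-labelled libraries LAMB3 fell by 0.51 (adjusted p = 0.00413), and G0S2 was lower there too. TRAIP, a ubiquitin ligase next to CAMKV, fell by 0.66 (adjusted p = 0.00333, edgeR) from 26.3 ± 2 CPM in shNT to 16.9 ± 1.17 CPM in the shCDK12-labelled libraries. AGTPBP1, an enzyme that trims tubulin tails, lies next to NTRK2 and rose by 1.04 (adjusted p = 8.84e-05, edgeR) between the same 2 groups, from 13.7 ± 2.02 to 27.4 ± 4.12 CPM. The pseudogene ABCA17P next to ABCA3 was under the limit for a test, at 2.87 ± 1.41, 5.79 ± 2.03, 4.63 ± 0.356 and 1.88 ± 0.694 CPM, the same order of groups as ABCA3 apart from the lowest pair. The library kit keeps strand, but whether the counting used it is not given in the sources used here, so reads from an opposite or overlapping transcript cannot be told apart from those of the named gene.

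**Figure D4:**
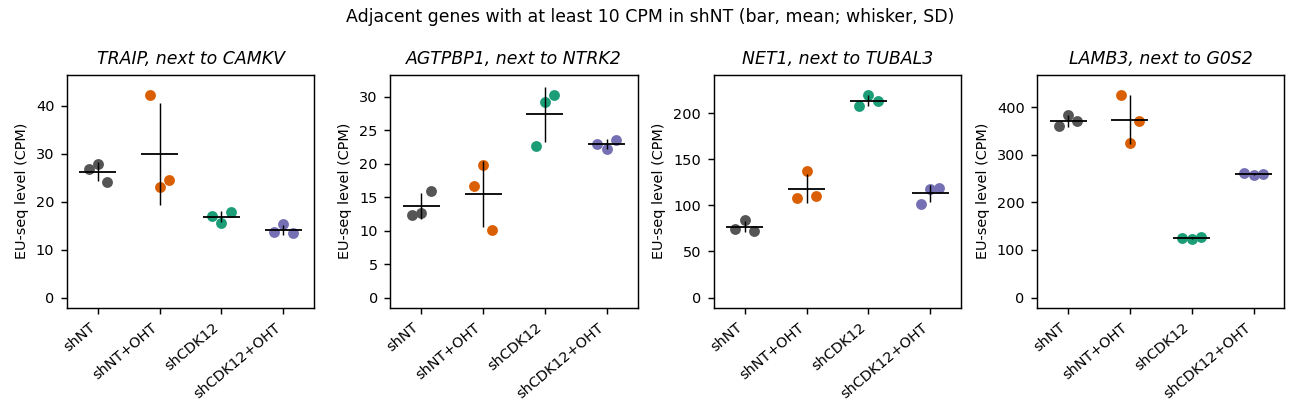
EU-seq level (CPM, y axis, own scale in each panel) in each library (points) of the 4 adjacent genes with at least 10 CPM in shNT, by group as labelled (x axis), with the mean as a bar and the SD of 3 libraries as a whisker. NET1, next to TUBAL3, is highest in the shCDK12-labelled libraries at 214 CPM, and LAMB3, next to G0S2, is lowest there at 125 CPM.

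Among the 11693 other genes with enough counts over the 12 libraries, the level of log2 CPM most like that of each gene was found by Pearson's r, as a description in which all points share libraries and depth. PDE1B was most like CA12, a carbonic anhydrase, with an r of 0.989 and levels of 5.62, 21.4, 57.7 and 13.1 CPM in the 4 groups. ADCYAP1R1 was followed by CCDC12 (0.974) and by OLIG2 (0.973), a transcription factor of oligodendrocytes, at 24.7, 104, 130 and 43.9 CPM. CAMKV was most like BLMH (0.974) and EIF4A3 (0.972), NTRK2 like the zinc finger genes ZNF320 (0.978) and ZNF529 (0.977), and TUBAL3 like BMS1P20 (0.979) and SEMA4D (0.978). G0S2 was most like SNHG16 (0.981) and TRIM14 (0.978). ABCA3 and SORD shared ZNF324B (0.968 and 0.961), at 8.34, 14.5, 11.7 and 7.99 CPM. Within the 8, the highest r was that of ABCA3 with SORD (0.967), then ADCYAP1R1 with PDE1B (0.96), while TUBAL3 had an r of -0.078 with G0S2 and 0.028 with SORD.

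Markers of other cell types were also followed, since several of the 8 genes are known from neurons or fat cells. The summed level of 8 neuronal markers ran from 133 to 148 CPM in shNT, from 107 to 127 CPM in shNT+OHT, from 116 to 123 CPM in the shCDK12-labelled libraries and 133 to 152 CPM in the shCDK12+OHT-labelled ones, with 2 to 4 of the 8 at 10 CPM or more. TUBB3 gave the largest share, at 81.7 CPM in shNT and 75 CPM in the shCDK12-labelled libraries. Between these 2 groups SYP was lower (12 and 5.9 CPM), as were RBFOX3 (8.16 and 3.84 CPM) and SNAP25 (3.3 and 1.84 CPM). Only SYT1 (11.2 and 13.7 CPM) and STMN2 (0.26 and 0.554 CPM) were higher. The 5 adipocyte markers summed to 0.781 to 1.64 CPM in shNT and 1.16 to 1.88 CPM in shNT+OHT. Their sum was 3.33 to 4.3 CPM in the shCDK12-labelled libraries and 1.05 to 1.49 CPM in the shCDK12+OHT-labelled ones, with ADIPOQ or FABP4 at 0 in every group. PLIN1 of this list stood at 0.351, 0.7, 2.57 and 0.657 CPM in the 4 groups, and the other adipocyte markers had means of at most 0.665 CPM. The 5 leukocyte markers summed to between 13.6 and 32.6 CPM, and the 6 epithelial markers to between 692 and 853 CPM in the first 3 groups and 997 to 1080 CPM in the shCDK12+OHT-labelled libraries. KRT8 and KRT18 made up most of the epithelial sum. EPCAM stood at 0.82, 1.58, 8.03 and 2.64 CPM in the 4 groups, the order of levels in PDE1B apart from the middle pair, while KRT8 and CDH1 were lower in the shCDK12-labelled libraries than in shNT (232 against 288 and 6.1 against 9.57 CPM). The part of these cell types in the levels of the 8 genes was not tested, and in bulk RNA more cells that make a transcript and more transcript per cell cannot be told apart.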

How the data were processed

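Newly made RNA was measured by EU-seq in 12 libraries of U2OS-MycER cells, 3 in each of 4 groups taken from the labels. The authors deposited raw counts of reads per human gene, listed by Entrez identifier and not normalized. Per the submitters' processing notes, STAR 2.7.5c, featureCounts 1.4.5-p1 and hg19 were used. The annotation, the use of strand and the treatment of reads with several matches are not given in the sources used here. Symbols came from RefSeq by identifier for 23284 of 23434 genes. Levels were computed as CPM of the library total scaled by TMM over all 12 libraries. The mouse RNA was not used for scaling here, so levels are relative to the human counts of a library.

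Counts were tested with edgeR 4.0.16 in R 4.3.3 (TMM normalization, quasi-likelihood test, genes with a mean normalized count above 32, Benjamini-Hochberg adjustment over all genes tested, threshold 0.05). Each pair of groups was fitted on its 6 libraries and the interaction on all 12. The scripts were tested on simulated counts. The alternatives were DESeq2 1.42.0, upper-quartile normalization, a limit of 10 or none, the replicate number as a block, all libraries in one fit, and leaving out each library. Thinning each library to 1251695 counts, leaving out each library in the ratios of CPM, exchanging the labels of the 2 shCDK12 groups, and combining no limit with other alternatives were chosen after seeing the data. The 8 genes and the gene lists were chosen with earlier results of these data known. Named beside the 8 are up to 4 called genes per family with the largest change, further family members as levels (chosen after their values were seen), the 2 genes most alike, and the nearest gene of the table on each side. A few genes of the lists are not reported here and were left out of the lists' counts. Exact intervals condition on the summed counts of 2 groups. Depths and the 3-count floor set the precision given with the results, and reads without molecular identifiers are not independent molecules.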

Additional observations from a re-analysis of the deposited data

Results flagged for a closer look

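At 5 of the 8 genes the response to OHT was lower in the shCDK12 background as labelled, past the threshold of the interaction fit. In that fit 45.2% of 11699 genes were called, and 19.6% in this direction. The log2 difference between the responses was -7.17 for ADCYAP1R1, -7.26 for CAMKV, -6.08 for G0S2, -4.95 for ABCA3 and -3.74 for SORD. All 5 were higher with OHT in shNT, and lower in the shCDK12+OHT-labelled libraries than in the shCDK12-labelled ones. ADCYAP1R1, CAMKV and G0S2 were named from this interaction, and ABCA3 and SORD from a comparison that is part of it. The values are therefore a description, and passing the threshold follows in part from the choice and tests nothing. TUBAL3 had a value of -3.78. The direction rests on the labels of the 2 shCDK12 groups, which the newly made CDK12 RNA cannot decide, and an exchange was not tested. With these labels exchanged the difference would be -0.26 for ADCYAP1R1, 0.82 for CAMKV, 1.32 for G0S2, -1.36 for ABCA3 and -1.12 for SORD, and 5.88% of all genes would be called.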

How the results depend on the processing

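Of 31 results for the 8 genes, 29 kept their direction and call in every alternative that tested them. The others were the interaction at TUBAL3, which rests in part on the libraries that named the gene, and SORD. Among the 31, only the falls of ABCA3 and SORD between the 2 groups labelled with the shRNA share no library with the naming comparison. Even these 2 genes were chosen with earlier results of these data known. For the rest, a call that is kept follows in part from the choice of the genes. SORD, not called in the shCDK12+OHT-labelled libraries against shNT, went from 0.047 to -0.007 with the replicate block and to between -0.19 and 0.22 with each library left out, below 0 without shNT replicate 1 (-0.061) and without shCDK12+OHT replicate 3. The fall from the shCDK12-labelled libraries to the shCDK12+OHT-labelled ones was between -2.02 and -1.58 for ABCA3 (adjusted p at most 0.000204) and between -1.54 and -1.15 for SORD (at most 0.000596). From shNT+OHT to the shCDK12+OHT-labelled libraries, over all genes with at least 1 count, TUBAL3 was between 3.14 and 4.61 with each library left out and was called each time (adjusted p at most 0.00914, edgeR). PDE1B was between -1.67 and -1.32 and lost its call without each of the shCDK12+OHT-labelled libraries, and it was called with DESeq2 (adjusted p = 0.0281).

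The number of genes called upon OHT in shNT was 1782, and 3256 with all 12 libraries in one fit, for a reason that was not tested. With each library left out it ran from 670, without shNT replicate 2, to 2523, and was 751 without shNT replicate 1, 818 without shNT replicate 3 and 1101 without shNT+OHT replicate 3. From shNT+OHT to the shCDK12+OHT-labelled libraries it was 5298, and 3520 to 6238 with each library left out, at the lower end without replicate 2 and, at 3527, without replicate 1 of the shCDK12+OHT-labelled libraries. With each library thinned to the same total count, and so fewer counts per gene, the counts were 4472 in place of 7265 from shNT to the shCDK12-labelled libraries, 3776 in place of 6667 to the shCDK12+OHT-labelled ones, 3178 in place of 6128 between these, 3131 in place of 5298 between the groups with OHT and 3167 in place of 5289 for the interaction. Over all genes the median log2 interaction was 0.10, and -0.017 with upper-quartile normalization. Depth limits the genes with under 10 counts in shNT most.

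Equal replicate numbers were not treated as pairs in the main fits. For libraries that share a number, deviations from the group means had an r from -0.092 to 0.304. Of these pairs 2 of 18 exceeded 0.1, against 0 of 36 with unlike numbers. Both joined shNT+OHT to the shCDK12-labelled libraries, at replicate 1 (0.275) and replicate 2 (0.304), so a shared origin of these libraries cannot be told from the labels. With the replicate block 1734 genes were called upon OHT in shNT and 5385 in the interaction, and it changed no call of the 8 genes in the fits with the limit of 32. Over all genes with at least 1 count, PDE1B between the groups with OHT was no longer called with the block, at -1.39 (adjusted p = 0.153), while TUBAL3 was, at 3.77 (adjusted p = 0.00185).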
